A study of Mus musculus with 10 samples.

Results

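SET is a histone chaperone that binds histone tails and can shield them from acetyltransferases, and it is also known as an inhibitor of the phosphatase PP2A. The gene makes 2 main protein isoforms, SETa and SETb, which start from different first exons and so differ at the N-terminus. The chromatin positions of each isoform were compared here in mouse embryonic stem cells that lack endogenous SET, so that the tagged isoform was the SET protein added back.

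The comparison used 4 of the 10 labelled samples, 2 replicates of SET KO SETa addback and 2 replicates of SET KO SETb addback. Both groups derive from KH2, a mouse embryonic stem cell line built to carry a single doxycycline-inducible transgene, and carried the SET knockout. The transgene was HA-tagged SETa in line KH2 SET-KO pBS31-HA-SETa and HA-tagged SETb in line KH2 SET-KO pBS31-HA-SETb. Both groups were treated for 24 h with 1 µg/ml doxycycline and were grown on fibroblast feeders that were depleted before harvest. They were crosslinked with DSG, which joins proteins, and then with formaldehyde, and tagged protein was pulled down by its HA tag. Each isoform was expressed in a line of its own, so isoform and line cannot be told apart. Samples of the same lines kept off doxycycline were not analysed here, and the values therefore stand without a background from uninduced cells. Peak lists hold no expression, so the labelled cell type could not be checked by its transcripts. Of 22 fibroblast marker genes, 1 and 3 had a peak with q at most 0.05 at the start in the SETa libraries and 0 and 0 in the SETb libraries. Over all coding genes the shares with such a peak were 21.4% and 24.1% with SETa and 4.92% and 7.35% with SETb.

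The deposited lists held 22176 and 15701 peaks with SETa and 2518 and 9768 with SETb, a difference of 1.91 on the log2 scale (exact two-sided permutation test, p = 0.333, the smallest that 2 libraries against 2 allow). The SD between replicates was 0.35 with SETa and 1.38 with SETb on that scale. The difference was 0.93 without SETb replicate 1 and 2.89 without SETb replicate 2. No test of this design can pass a threshold of 0.05, so differences are set against the spread between replicates. The labels do not say that replicates came from separate cultures, so these p-values rest on the arrangement of these samples alone. Because the lists differ so much in length, the strongest 2518 peaks of each library were compared, the length of the shortest list, ordered by −log10 p with ties broken by fold enrichment. At that length the weakest peak had a −log10 p of 6.88 and 6.50 with SETa and 2.33 and 5.07 with SETb. Chromosomes 8 and 11 were not analysed here.

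Within these lists SETa replicate 1 stood apart from the other libraries. It had 255 of its 2518 summits at pseudogenes and at no gene start, 10.1%, against 31, 47 and 43 in SETa replicate 2 and SETb replicates 1 and 2. Of the 255 summits, 238 lay inside the pseudogene and 31 at processed copies of ribosomal protein genes such as Rps18-ps5, Rpl36a-ps2 and Rpl3-ps1, against 1, 0 and 1 in the other libraries. Of the 255 peaks, 34 overlapped a peak of SETa replicate 2. Leaving out pseudogene summits moved the difference between isoforms from 1.91 to 1.90 (log2) in peak number, from 1.33 to 2.75 percentage points in the share at gene starts, from −1.99 to −1.19 points in the distal share and from 143.8 to 147.5 bp in width. The shares at gene starts and distal sites and the peak width are therefore also given without SETa replicate 1.

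The sequences under the strongest shared peaks are shown first, since the letters CCGGAA, the core that ETS-family transcription factors recognise, were frequent in them. Each is 120 bases of a RefSeq promoter (GRCm38.p6), in the direction of the gene, with at most 30 bases after the start site, and capitals mark CCGGAA or its reverse complement TTCCGG. The first 5 are the shared genes of best mean rank whose summit lay inside a listed promoter: Nsfl1c (chr2:151494092-151494211, plus strand), Ddost (chr4:138304648-138304767, plus strand), Kctd5 (chr17:24073479-24073598, minus strand), Ighmbp2 (chr19:3282981-3283100, minus strand) and Dcaf10 (chr4:45341991-45342110, plus strand).
Nsfl1c: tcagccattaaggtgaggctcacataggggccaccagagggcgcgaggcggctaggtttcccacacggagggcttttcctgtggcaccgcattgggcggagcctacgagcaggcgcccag
Ddost: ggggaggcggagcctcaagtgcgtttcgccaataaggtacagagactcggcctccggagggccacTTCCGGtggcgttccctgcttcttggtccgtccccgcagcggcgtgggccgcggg
Kctd5: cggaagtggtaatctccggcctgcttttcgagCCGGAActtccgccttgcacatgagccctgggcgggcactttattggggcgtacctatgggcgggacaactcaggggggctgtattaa
Ighmbp2: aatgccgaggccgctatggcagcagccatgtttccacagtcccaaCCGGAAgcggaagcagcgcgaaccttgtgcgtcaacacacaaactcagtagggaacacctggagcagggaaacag
Dcaf10: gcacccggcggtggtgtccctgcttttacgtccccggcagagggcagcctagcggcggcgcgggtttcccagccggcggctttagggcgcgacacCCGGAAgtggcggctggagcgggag
Nsfl1c, which tied with Rab33b for the best mean rank at 3.5, has no match in its promoter. Kctd5 has 3 matches in its promoter and Dcaf10 has 2, of which 1 each falls within the printed bases. For contrast, Polr2i (chr7:30231984-30232103, plus strand) and Cfap44 (chr16:44394549-44394668, plus strand) had a peak with SETa only, and Rbm17 (chr2:11603170-11603289, minus strand) with SETb only. None of their 3 promoter windows holds a match.
Polr2i: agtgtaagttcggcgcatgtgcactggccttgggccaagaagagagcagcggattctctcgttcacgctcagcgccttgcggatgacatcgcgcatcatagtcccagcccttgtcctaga
Cfap44: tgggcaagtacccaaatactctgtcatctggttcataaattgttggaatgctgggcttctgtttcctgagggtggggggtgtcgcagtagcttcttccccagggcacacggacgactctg
Rbm17: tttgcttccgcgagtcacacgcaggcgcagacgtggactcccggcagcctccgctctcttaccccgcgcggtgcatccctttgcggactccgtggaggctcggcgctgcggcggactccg

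Both isoforms marked promoters of protein-coding genes. Among the strongest 100 peaks, summits lay within 1 kb of a coding gene start in 96.0% and 99.0% with SETa and in 99.0% and 98.0% with SETb. Among the strongest 500 the shares were 71.2% and 78.6% with SETa and 85.4% and 82.8% with SETb. Both SETb libraries were then above both SETa libraries, by 9.20 percentage points (exact two-sided permutation test, p = 0.333, the smallest possible). In SETa replicate 1, 9.80% of those 500 summits were at pseudogenes, against 0.60%, 1.20% and 1.20% in the other libraries. Among the strongest 2518 the coding shares were 50.4% and 63.6% with SETa and 59.8% and 51.0% with SETb, so the groups overlapped. The share fell in each library as more peaks were taken, as the plot of coding gene starts along the ranking shows.

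**Figure D1:**
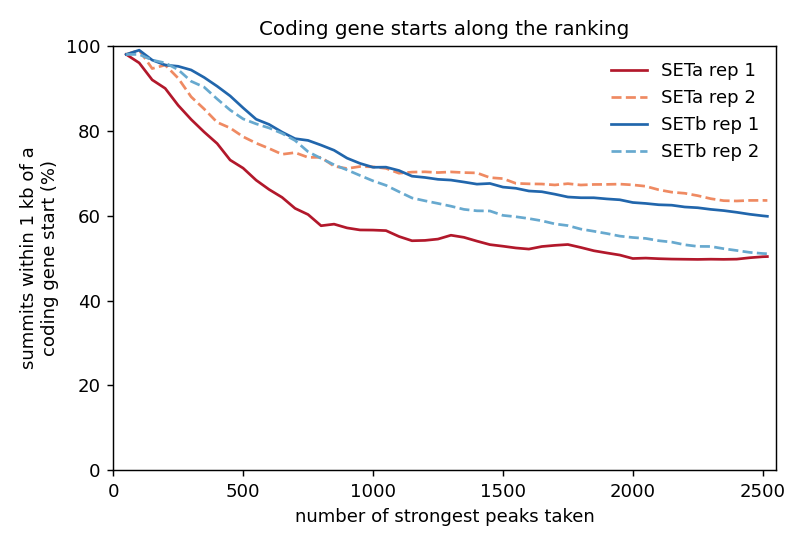
Share of summits within 1 kb of a coding gene start (y axis, percent) against the number of strongest peaks taken from each library (x axis), with 1 line per library. The lines start near 100%, fall to 71.2% to 85.4% at 500 peaks and to 50.4% to 63.6% at 2518 peaks, where the isoforms overlap.

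Starts of coding genes and long noncoding RNAs together took 52.4% and 66.8% of the strongest 2518 summits with SETa and 62.3% and 54.3% with SETb. SETa exceeded SETb by 1.33 percentage points, with a mean of 59.6% ± 10.2 (SD, n = 2) against 58.3% ± 5.62 (SD, n = 2), which is less than the spread between replicates (exact two-sided permutation test, p = 1). Without SETa replicate 1 SETa exceeded SETb by 8.54 points, and without SETa replicate 2 the difference was −5.88 points, with SETb higher. The direction at 2518 peaks thus depended on single libraries. At 500 peaks it was −9.60 points and at a −log10 q of at least 5 it was −19.8 points, with both SETb libraries higher.

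Summit positions were compared over the summits within 1 kb of a listed coding gene start, so the distances are bounded by that choice. The median summit lay 46.0 and 44.5 bp downstream of the start with SETa and 36.0 and 28.0 bp downstream with SETb. The median distance in either direction was 147 and 155 bp with SETa and 140 and 139.5 bp with SETb. Both SETa libraries were thus above both SETb libraries, by 13.2 bp in the signed position and 11.2 bp in the distance, and replicates of SETb differed by 8 bp in the first. From 36.6% to 40.9% of these summits lay within 100 bp of the start, and here the groups overlapped.

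**Figure D2:**
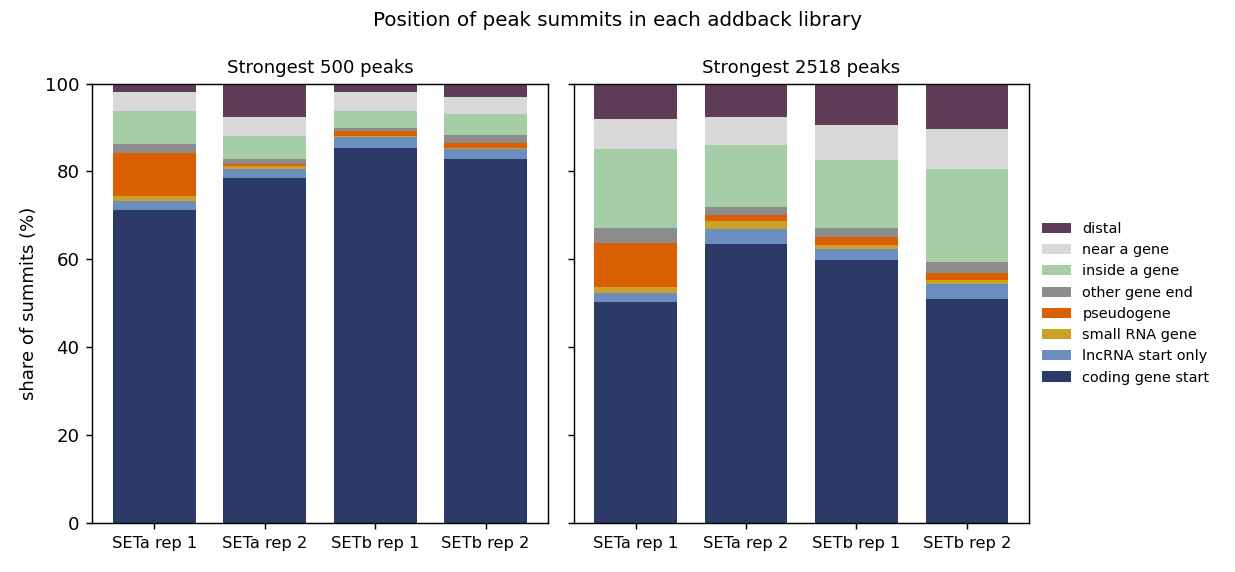
Share of summits (y axis, percent) by position class, as stacked bars, for the strongest 500 peaks (left) and the strongest 2518 peaks (right) of each library. Coding gene starts make up 71.2% to 85.4% at 500 peaks, and the pseudogene share of SETa replicate 1 is 9.80% there and 10.1% at 2518.

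The share of distal summits had no order between isoforms that held across settings. Distal summits, more than 10 kb from any gene, made up 7.94% and 7.70% of the strongest 2518 with SETa and 9.33% and 10.3% with SETb. SETb was higher in both libraries, by 1.99 percentage points (exact two-sided permutation test, p = 0.333, the smallest possible), against an SD between replicates of 0.67 with SETb. Without SETa replicate 1 SETb was higher by the same measure, with a difference of −2.1 points. Without pseudogene summits the shares were 9.83% and 7.77% with SETa and 9.51% and 10.5% with SETb, which overlapped, with a difference of −1.19 points. At more than 50 kb from any gene they were 2.78% and 1.27% against 2.66% and 2.82%, which also overlapped, with −0.71 points. The order did not hold at other list lengths either, since the distal share of the strongest 500 was 2.00% and 7.60% with SETa and 2.00% and 3.00% with SETb. Summits inside a gene away from its start made up 18.1% and 13.98% with SETa and 15.6% and 21.0% with SETb, which overlapped. Summits at small RNA genes were rare, with 1.23% and 1.95% against 0.95% and 0.95%, higher in both SETa libraries. Summits near a gene, outside it by at most 10 kb, made up 6.95% and 6.35% with SETa and 7.98% and 9.17% with SETb, higher in both SETb libraries.

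Distal peaks were matched to peaks of the other libraries. Of the 194 distal peaks in the strongest 2518 of SETa replicate 2, 93 overlapped a peak of any strength in SETa replicate 1, 23 in SETb replicate 1 and 44 in SETb replicate 2. Of the 235 in SETb replicate 1, 69 overlapped a peak of SETb replicate 2, 88 of SETa replicate 1 and 54 of SETa replicate 2. These counts depend on the lengths of the lists searched. Regions in all 4 libraries included 29 distal ones. The strongest by mean rank lay at chr6:127269295-127270310, 11621 bp from the pseudogene Gm7308 and inside a segment of chromosome 6 described below. Its rank among the 954 regions was 197 and 217 with SETa and 304 and 320 with SETb, better in both SETa libraries. The next lay at chr6:47767580-47768704, 10859 bp from the long noncoding RNA Gm52862, with ranks of 179 and 226 against 361 and 278. The others were at chr2:167262899-167263570, 11071 bp from Ptgis, and chr4:148722941-148723896, 21556 bp from the long noncoding RNA Gm32897. Near Ptgis, which encodes prostacyclin synthase, the ranks were 388.5 and 312.5 against 307 and 262.5, better in both SETb libraries. Near Gm32897 they were 315 and 366.5 against 313 and 364, which overlapped.

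Peaks were wider with SETa in lists of equal length. The median width of the strongest 2518 peaks was 423.5 and 464 bp with SETa and 291 and 309 bp with SETb, means of 443.8 ± 28.6 and 300.0 ± 12.7 bp (SD, n = 2). The difference of 143.8 bp exceeded both spreads (exact two-sided permutation test, p = 0.333, the smallest possible), and without SETa replicate 1 it was 164 bp. Among peaks that reached a −log10 q of 5 the width difference was smaller, 49.2 bp, with medians of 581.5 and 665.5 bp against 573 and 575.5 bp. The same order held among the strongest 100, with 760 and 809.5 bp against 670.5 and 656.5 bp, and among the strongest 500 and 1000. Over all peaks the medians were 266 and 268 bp against 291 and 250 bp, which overlapped. Lists of equal length were not matched in signal. The median fold of the strongest 2518 peaks was 4.23 and 4.60 with SETa and 3.19 and 3.54 with SETb. The part of signal strength in the width difference was not tested. Read totals and fragment lengths were not compared here.

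**Figure D3:**
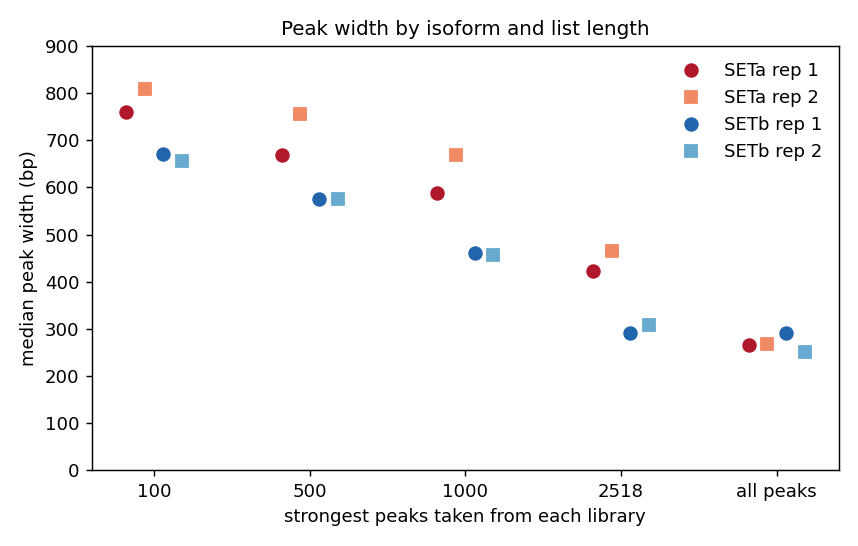
Median peak width (y axis, bp) for the strongest 100, 500, 1000 and 2518 peaks and for all peaks (x axis), with 1 point per library. Both SETa libraries lie above both SETb libraries in the 4 lists of equal length, and the points overlap over all peaks.

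The width difference was also present at the same sites. Merging peaks that shared at least 1 bp gave 39310 regions, of which 32539 came from a single library and 954 from all 4. Over the 954 shared regions the median width was 586.5 and 664 bp with SETa and 468 and 485.5 bp with SETb. The median fold over the same regions was 4.73 and 5.85 with SETa and 4.30 and 4.14 with SETb, also higher in both SETa libraries. Sharing a site thus did not match the isoforms in signal. At 423 shared regions, 44.3%, the peak was wider in both SETa libraries than in both SETb libraries, and at 40 regions, 4.19%, the reverse held. Coding gene starts made up 766 of the 954 regions, and 334 of these were wider with SETa and 33 with SETb. Of the 12 shared pseudogene regions 9 were wider with SETa and 0 with SETb. Among the named genes below, Tmem127 was 796 and 636 bp wide with SETa and 243 and 220 bp with SETb. Zbtb11, which encodes a zinc finger transcription factor, went the other way, with 482 and 452 bp against 941 and 685 bp.

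Genes at the top of the shared regions were taken by mean rank over the 4 libraries. The 10 coding genes with the best mean rank over the shared regions were Nsfl1c, a cofactor of the p97 ATPase, Rab33b, a Golgi GTPase, Ddost, a subunit of the enzyme that adds N-linked glycans, Kctd5, a cullin adaptor, Rad54l2, a helicase of the SNF2 family, Dpy19l4, Ighmbp2, a helicase, Dcaf10, a ubiquitin ligase substrate receptor, Mrpl44, a mitochondrial ribosomal protein, and Bms1, a factor of ribosome assembly. Nsfl1c ranked 1 and 4 with SETa and 4 and 5 with SETb, with fold enrichments of 31.5 and 27.1 against 24.4 and 20.4. Rab33b ranked 5 and 1 against 2 and 6, and its ranks overlapped. Ddost was first in both SETb libraries, with folds of 29.9 and 28.7, and ranked 4 and 10 with SETa, with folds of 24.1 and 23.9. Dpy19l4 was second in both SETa libraries, with folds of 26.4 and 27.4, and ranked 15 and 8 with SETb, with folds of 13.4 and 13.5. Bms1 ranked 7 and 3 with SETa and 11 and 23 with SETb, and lies in the chromosome 6 segment. Each of the 10 genes was at rank 23 or better in every library, which follows largely from their choice by mean rank.

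Ranks over the 954 shared regions were alike between isoforms and slightly less so than between replicates. Spearman's rho across regions was 0.860 and 0.861 for the replicate pairs and 0.807 to 0.831 for the 4 isoform pairs. Regions of a library share its depth and are not independent replicates, so these values are a description. The median rank gap was 79.2 and 80.5 positions between replicates and 90 to 96 between isoforms. Of the first 100 regions, replicates shared 75 and 77 and isoform pairs 70 to 73.

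Regions that ranked better in both libraries of an isoform were counted in either direction. Ranks run over the same 954 regions in each library, so gains and losses must offset each other and the balance of the counts is no result. SETa ranked better at 192 regions, 20.1%, and SETb at 206 regions, 21.6%, leaving 556 regions with overlapping ranks. Some regions separate in this way however libraries are grouped, so these shares are a description with no test. At coding gene starts the counts were 145 and 170 of 766. Regions in a segment of chromosome 6 from 118 to 136 Mb were counted apart. The segment was outlined from other libraries of the series, SETa in cells with endogenous SET, where it held 69.4% and 62.2% of peaks, as the longest run of 1 Mb bins with at least 20 summits in both libraries. Of its 34 shared regions, 24 ranked better with SETa, 70.6%, and 1 with SETb. Elsewhere 168 of 920 regions ranked better with SETa, 18.3%, and 205 with SETb, 22.3%. In the segment 31 of the 34 regions were also wider with SETa and 0 with SETb. The copy number of the segment in these lines was not analysed here. Leaving out all of chromosome 6 gave 163 regions ranked better with SETa and 173 with SETb. The difference between isoforms was then 1.89 (log2) in peak number, 1.16 percentage points in the share at gene starts, −1.90 points in the distal share and 130.5 bp in width.

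**Figure D4:**
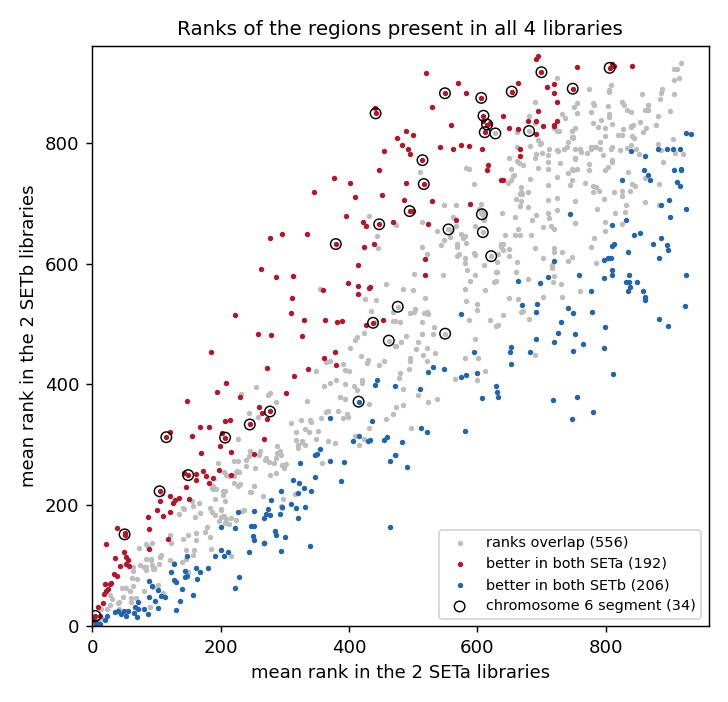
Mean rank of each shared region in the 2 SETb libraries (y axis) against the 2 SETa libraries (x axis), with 1 point per region and 954 in all. Red points, 192, ranked better in both SETa libraries, blue points, 206, in both SETb libraries, and the 34 circled regions of the chromosome 6 segment include 24 red points.

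Some shared genes ranked well ahead with SETa. Tmem127, a transmembrane protein, ranked 375.5 and 506 with SETa and 871 and 842 with SETb, with folds of 6.47 and 5.83 against 2.89 and 2.88. Zbtb11 ranked 358 and 333 against 685 and 752.5, with folds of 6.72 and 8.78 against 2.87 and 3.08. Atpaf1, an assembly factor of the ATP synthase, ranked 284.5 and 384 against 623 and 675.5. Caprin2, an RNA-binding protein, Wnk1, a kinase of ion transport, and Vmn2r29, a vomeronasal receptor, completed the 6 coding gene starts with the largest gaps in favour of SETa. With q at most 0.05 asked in all 4 libraries, Atpaf1 and Caprin2 kept their regions, and Tmem127, Zbtb11, Vmn2r29 and Wnk1 did not. At Tmem127 the SETb peaks had a −log10 p of 4.36 and 4.29. Wnk1 lies in the chromosome 6 segment. Vmn2r29 belongs to a large family of similar genes, so its reads may be shared with relatives.

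In the other direction, Zfp606 ranked 624 and 887.5 with SETa and 347 and 412.5 with SETb, with folds of 4.23 and 3.58 against 6.87 and 5.33. Ncstn, a subunit of the gamma-secretase protease, ranked 940 and 682 against 448 and 386.5, with folds of 2.25 and 4.10 against 4.84 and 5.52. Tomm22, a receptor of mitochondrial protein import, ranked 758.5 and 835 against 526 and 393.5. Enpp4, Gm7102 and Mfsd8 had the largest gaps among coding gene starts between the better SETa rank and the worse SETb rank, with SETa ranks of 923, 835 and 835 and SETb ranks of 596.5, 565.5 and 565.5. With q at most 0.05 asked in all 4 libraries, Enpp4, Gm7102 and Mfsd8 did not keep their regions. The Ncstn peak of SETa replicate 1 was also weak, with a −log10 p of 3.32. The summit at Gm7102 also lay inside the pseudogene Gm6020. These values were used to choose the genes and carry no test.

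Genes were then sorted by whether they were found with both isoforms or with a single isoform. A gene counted as found where the summit of a peak with q at most 0.05 lay within 1 kb of its start, and as absent where no peak of any strength did. Of 19232 coding genes, 2395, 12.5%, were found in both SETa libraries and 682, 3.55%, in both SETb libraries. Genes found with both isoforms numbered 617, 3.21%. Genes found with SETa and not with SETb numbered 846, 4.4%, and those found with SETb and not with SETa numbered 6, 0.0312%. Leaving out a replicate, which asks less of either isoform, gave 1016 to 2333 and 14 to 133 genes. Of the 682 SETb genes, 676 had a peak of some strength in at least 1 SETa library and 653 in both. Of the 2395 SETa genes, 1549 had a peak in at least 1 SETb library and 849 in both.

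These counts come from lists of unequal length. The worse of the SETa ranks of these 846 genes had a median of 6246.5, beyond the 2518 peaks of SETb replicate 1, and 74 of the 846 genes were within the first 2518 in both SETa libraries. Presence and absence were therefore also judged on the strongest 2518 peaks of each library. All 4 libraries then shared 574 genes, SETa alone had 114 genes, 0.593%, and SETb alone had 113 genes, 0.588%. Thus at equal list length the counts for either isoform were nearly equal. The chromosome 6 segment held 20 of the 114 SETa genes and 0 of the 113 SETb genes, with 257 coding genes in the segment. At a −log10 q of at least 5, 417 genes were found with both isoforms, 15 with SETa only and 0 with SETb only.

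The SETa-only genes of best rank were Gm13889, Nat8f4, P3h3, Gnb2, Fbxl14, Polr2i, Tbcb and Foxm1. Gm13889 ranked 327 and 328 in the SETa libraries, with folds of 4.25 and 5.50, and had no peak in either SETb library. Nat8f4, of a family of similar acetyltransferase genes, ranked 355 and 483, with folds of 7.47 and 7.15. Gnb2, a G protein beta subunit, ranked 596 and 481, with folds of 5.73 and 7.15. Polr2i, a subunit of RNA polymerase II, and Tbcb, a tubulin folding cofactor, share a peak between their starts, at ranks 844 and 853. P3h3, a collagen-modifying enzyme, Fbxl14, an F-box protein, and Foxm1, a transcription factor of the cell cycle, ranked 516 and 486, 631 and 454, and 873 and 704. These last 3 genes lie in the chromosome 6 segment. With a window of 250 bp Gm13889, P3h3, Fbxl14, Tbcb and Foxm1 no longer met the rule, with one of 2.5 kb P3h3 did not, and over listed starts alone Gm13889 and Foxm1 did not.

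The 6 SETb-only genes included proteins of mitochondria, the cell surface and splicing. Slc25a46, a mitochondrial outer membrane protein, ranked 490 and 1413 in the SETb libraries, with folds of 4.72 and 3.60. Gpc4, a glypican, ranked 738 and 708, with folds of 3.89 and 4.12. Pabpc6 ranked 716 and 858, and belongs to the poly(A)-binding protein family of similar genes. Rbm17, a splicing factor, ranked 1032 and 683. Pdcd10 and Serpini1 share a peak in each library, at ranks 1149 and 1303, but the peaks, at chr3:75556297-75556616 in replicate 1 and chr3:75557032-75557365 in replicate 2, do not overlap. None of the 6 genes reached a −log10 q of 5 in both SETb libraries. With a window of 250 bp Slc25a46, Gpc4, Pdcd10 and Serpini1 no longer met the rule, with one of 2.5 kb Slc25a46 did not, and over listed starts alone Slc25a46 and Pabpc6 did not.

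The endogenous Set gene was listed with SETa and not with SETb. SETa replicate 1 had 4 peaks over the gene. The best lay at chr2:30066598-30066884 with a fold of 3.73, those at ranks 7087 and 8801 had folds of 3.27 and 3.24, and the weakest, nearest the first start, lay at chr2:30062232-30062657 with a fold of 3.04. In SETa replicate 2 the peak lay at chr2:30062145-30062938 with a fold of 3.90. Of the replicate 1 peaks it overlapped the weakest alone, which had a −log10 q of 1.12 and so missed q at most 0.05. No single site of the gene thus met that threshold in both SETa libraries. The best, the weakest and the replicate 2 peak ranked 3397, 11032 and 4517, all beyond the 2518 peaks of SETb replicate 1. At Gt(ROSA)26Sor, a widely used integration locus, SETb replicate 2 had no peak, and the best ranks in the other libraries were 2448, 3085 and 1682.

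Gene classes were read from 18 lists, by the number of members with a start among the strongest 2518 peaks. Over all coding genes these numbers were 1428 and 1781 with SETa (7.43% and 9.26%) and 1650 and 1453 with SETb (8.58% and 7.56%). In 5 lists both SETa libraries had more members than both SETb libraries, in 0 lists the reverse held, and 13 lists overlapped. The 5 were histone genes, DNA replication and repair, splicing factors, p53 target genes and nuclear genes of oxidative phosphorylation, the last with 17 and 17 against 16 and 16 of 88.

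Genes of protein synthesis were in the lists of both isoforms. Of 65 mitochondrial ribosomal protein genes, 20 and 21 were in the SETa lists and 20 and 21 in the SETb lists, and 16 were found with both isoforms at q at most 0.05, 24.6% against 3.21% of all coding genes. Mrpl21 ranked 10, 11, 6 and 3 in the peak lists of SETa replicates 1 and 2 and SETb replicates 1 and 2, from a peak it shares with Ighmbp2, and Mrpl30 ranked 43, 35, 18 and 37. Of 74 cytoplasmic ribosomal protein genes, 22 and 17 were in the SETa lists and 19 and 17 in the SETb lists. Of these 74 genes, 7 were found with both isoforms (9.46%) and 8 with SETa only (10.8%, against 4.4% of all coding genes). The last share is subject to the list length as above. Rpl37 ranked 51, 52, 23 and 12. Of 97 translation factors and tRNA synthetases, 25 and 26 were in the SETa lists and 28 and 21 in the SETb lists, and 14 were found with both isoforms (14.4%). Eif1ad led them at ranks 18, 30, 66 and 58.

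Other classes common to both isoforms were RNA polymerases and general transcription factors, with 18 and 21 against 21 and 19 of 91, and the proteasome, with 7 and 8 against 7 and 7 of 38. The Mediator subunit gene Med23 ranked 25, 19, 38 and 18. Ndufs7, a subunit of respiratory complex I, ranked 26, 12, 12 and 10. Membrane trafficking genes were in the SETa lists 27 and 22 times and in the SETb lists 24 and 16 times, of 154. Chromatin modifiers gave 17 and 22 against 25 and 14 of 95. Zinc finger (Zfp) genes gave 38 and 47 against 41 and 51 of 348, and Zfp646 and Zfp668, which share a peak, ranked 52, 51, 36 and 14.

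The 5 separated lists were picked by this order from 18, and the differences were not tested. Of 66 splicing factors, 18 and 16 were in the SETa lists and 15 and 9 in the SETb lists, so the nearest libraries differed by 1 gene. Snrpd3, a core snRNP protein, was near the top with both isoforms, at ranks 15, 20, 37 and 39, and 15 members were found with SETa only, among them U2af2 at ranks 1706 and 994 and Hnrnph3 at ranks 1892 and 1591. Of 80 replication and repair genes, 11 and 16 were in the SETa lists and 8 and 7 in the SETb lists. Xrcc5, of the Ku complex of double-strand break repair, was found with both isoforms at ranks 395, 373, 308 and 258, and Msh5 and Rad17 were among 12 found with SETa only. The share found with SETa only was 22.7% for splicing factors and 15.0% for replication and repair, against 4.4% of all coding genes, and is subject to the list length as above.

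Of 76 histone genes, 9 and 13 were in the SETa lists and 3 and 4 in the SETb lists. Histone genes lie in clusters and share peaks, so these correspond to 6 and 11 distinct peaks with SETa and 3 and 3 with SETb. H3c6 was found with both isoforms, at ranks 963, 442, 363 and 735. A further 18 members, at 15 distinct peaks, were found with SETa only, 23.7% against 4.4% of all coding genes. They were led by the linker histone gene H1f0 at ranks 399 and 2171. The next, H2ac24, ranked 3084 and 1146, so from there on the worse rank lay beyond the 2518 peaks of SETb replicate 1. This share is subject to the list length as above. Many histone genes are near-identical copies, so reads may be split among them. Of 27 p53 target genes, 5 and 5 were in the SETa lists (18.5% each) and 2 and 2 in the SETb lists (7.41% each). Over all coding genes the shares were 7.43% and 9.26% with SETa and 8.58% and 7.56% with SETb. Gtse1 was found with both isoforms at ranks 161, 158, 122 and 276. Tigar, found with SETa only at ranks 1343 and 1537, lies in the chromosome 6 segment.

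Genes of cell identity are set here against the shares of all coding genes, 7.43% and 9.26% with SETa and 8.58% and 7.56% with SETb. By the rule of q at most 0.05, 3.21% of all coding genes were found with both isoforms and 4.4% with SETa only. Of 31 genes of the pluripotency network, 2 and 3 were in the SETa lists (6.45% and 9.68%) and 1 and 2 in the SETb lists (3.23% and 6.45%), and 0 were found with both isoforms. Sall4, Nanog and Klf5 were found with SETa only, at ranks 2867 and 959, 4489 and 2102, and 6988 and 2554, and Nanog lies in the chromosome 6 segment. Of 152 developmental transcription factor genes, 9 and 11 (5.92% and 7.24%) against 13 and 10 (8.55% and 6.58%) were in the lists and 0 were found with both isoforms. Of 43 Wnt pathway genes, 7 and 4 (16.3% and 9.30%) against 7 and 2 (16.3% and 4.65%) were in the lists, and Pygo2 was found with both isoforms. Among 23 genes of Set and related histone chaperones the numbers were 3 and 11 against 3 and 3. Hira ranked 124, 170, 245 and 216, and Ssrp1, a subunit of the FACT chaperone, ranked 588, 336, 327 and 282.

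Promoter sequence differed between the genes of both isoforms and the rest. The letters CCGGAA, on either strand, were present in the listed promoter windows, 250 bases before to 50 after each start, of 67.3% of 505 genes found with both isoforms. They were present in 31.5% of 698 genes found with SETa only, in 20.5% of 15495 coding genes with a listed window and in 9.88% of 8114 genes with no peak in any library. The extended letters CCGGAAG, which contain the shorter match, were in 49.5%, 19.6%, 12.7% and 5.398% of these sets. At least 2 matches of CCGGAA were in 34.5%, 10.6%, 6.51% and 2.33%. Genes with several listed starts have more bases searched. The motif letters were chosen after earlier results were known and after the promoters had been read, and a match is not evidence that a factor was bound.

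The frequency of the ETS letters followed rank in each library and was alike between isoforms. Among the first 100 coding genes of a library, CCGGAA was in 78.3% and 77.9% of promoters with SETa and in 76.2% and 80.5% with SETb. Among genes 101 to 500 the shares were 63.6% and 61.4% against 63.1% and 64.3%. Among genes 501 to 1000 they were 37.4% and 42.3% against 40.1% and 38.4%, so the isoforms overlapped in each of the 3 bins. In both-isoform genes with the summit inside the window and a match in it, the median distance from summit to nearest match was 28 and 33 bp with SETa and 32 and 32 bp with SETb. From 67.2% to 70.4% of these summits lay within 50 bp of a match. For the GC box letters GGGCGG the median distances were 51 and 63.5 bp against 57 and 46.5 bp.

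**Figure D5:**
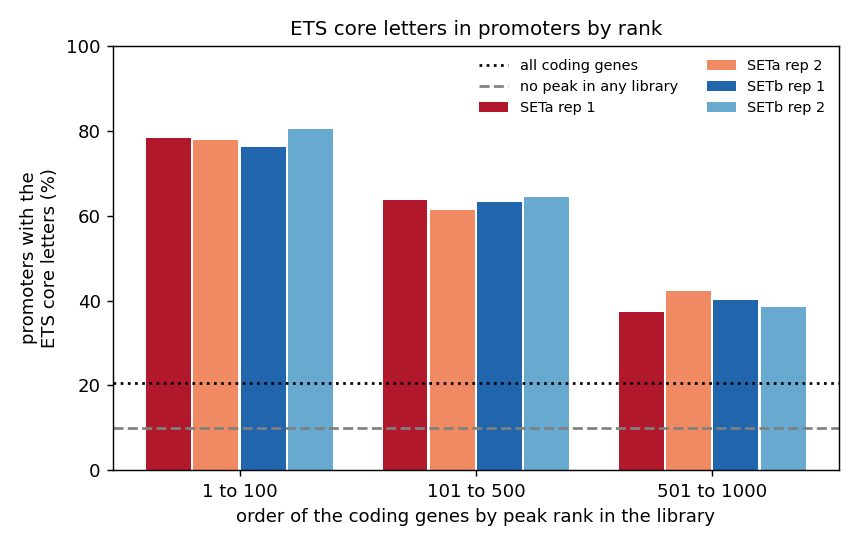
Share of promoters with CCGGAA on either strand (y axis, percent) for coding genes in 3 bins of rank order (x axis), with 1 bar per library. The bars fall from 76.2% to 80.5% in the first bin to 37.4% to 42.3% in the last, against 20.5% of all coding genes (dotted line) and 9.88% of genes with no peak (dashed line).

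GC box letters and GC content were higher in SETa-only promoters than in those of both isoforms, and both also moved with rank within each library. Among genes 1 to 100 the GC box letters were in 47.0% and 52.3% of promoters with SETa and 50.0% and 54.9% with SETb, and among genes 501 to 1000 in 78.4% and 74.2% against 75.1% and 70.5%. Median GC content was 58.3% to 59.0% in the first set and 62.7% to 64.3% in the second. The part of rank in the difference between the gene sets was not tested. Over the sets, the GC box letters were in 58.02% of both-isoform promoters, 75.1% of SETa-only promoters and 48.5% of all. The CCAAT letters were in 32.5%, 44.4% and 42.2%, and the TATA letters TATAAA in 6.53%, 8.45% and 14.8%. Median GC content was 59.3%, 64.5% and 56.0%, and the observed over expected CpG ratio was 0.82 in both marked sets and 0.56 over all coding genes. A listed start of another gene on the opposite strand within 1 kb upstream was found for 29.5% of both-isoform genes, 21.8% of SETa-only genes and 12.8% of all. When lists of equal length were used, 91 SETa genes and 92 SETb genes had a listed window. CCGGAA was in 30.8% and 38.0% of them, the GC box letters in 83.5% and 81.5%, and median GC content was 68.0% and 64.7%.

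The authors' lists of reproducible peaks were filtered by irreproducible discovery rate (IDR), which scores whether a peak holds its place across replicates. Their split by gene, given below, was nearer the split at equal list length than the one of 846 against 6 genes. The IDR lists combine the replicates and carry no replicate error. The SETa list held 530 peaks with a median width of 806 bp and the SETb list 485 peaks with a median of 654 bp. Coding gene starts held 81.7% of the SETa summits and 86.2% of the SETb summits, and 89.1% and 88.4% of the summits shared with the other list. Of the 143 SETa peaks not in the SETb list, 61.5% were at coding starts, 13.3% inside a gene and 9.09% distal. Of the 96 SETb peaks not in the SETa list, 77.1% were at coding starts and 4.17% distal. The chromosome 6 segment held 21 of the 143 and 1 of the 96.

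By gene, the SETa list reached 512 coding genes and the SETb list 499, and 412 genes were in both, 80.5% of the first and 82.6% of the second. A peak of some strength was present in all 4 libraries for 65 of the 100 genes in the SETa list alone and for 83 of the 87 in the SETb list alone. Of the SETa peaks, 34 overlapped no peak of either SETb library, and the reverse count was 0. These counts are not a comparison of the isoforms, since SETa peaks were searched in SETb lists of 2518 and 9768 peaks and SETb peaks in SETa lists of 22176 and 15701, and the same holds for the 65 and 83 genes above. The strongest of the 34 lay inside Ppp1r9a, a gene for an actin-binding protein, at chr6:4923838-4924232, with a −log10 p of 21.1 and a width of 395 bp. Next was the Gm13889 region described above, and then a distal peak at chr6:125420426-125421125 in the chromosome 6 segment, with 20.3. Others lay at Cecr2 in the same segment, inside Hmga2 and Lama1, and at Stk11. These names are the nearest genes. Most of the 34 ranked low within their list, with 24 of them beyond rank 400 of 530.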

How the data were processed

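HA ChIP-seq peak lists of 4 libraries were compared, 2 with SETa and 2 with SETb added back in SET KO cells. The submitters' processing notes name Bowtie2, MACS2, deepTools and the build GRCm38/mm10, with no versions, and the order of steps, the control library and read totals were not given in the sources used here. In the lists the authors deposited, the fold is a linear ratio of peak signal over local background, the −log10 p and −log10 q are the peak caller's, and the score is 10 times the −log10 p. The highest p in the deposited lists was 0.00492. In the deposited IDR lists the score is a scaled IDR and the −log10 p is that of the merged peak. These values were used to rank, filter or describe peaks within a list, and folds of a gene printed side by side come from lists called separately.

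Gene positions and promoters came from RefSeq tables of GRCm38.p6. Starts were listed for 15495 of 19232 coding genes, and either gene end was used for the other 3737. Each summit was put in the first class met of coding gene start (within 1 kb), long noncoding RNA start, small RNA gene, pseudogene, other gene end, inside a gene, near a gene (within 10 kb) and distal. Chromosomes 8 and 11 were not analysed here, and 3 mitochondrial peaks of SETb replicate 2 were left out. Analyses used Python 3.11.15, pandas 2.3.3, numpy 2.4.6 and scipy 1.17.1, and the code was tested on simulated data. Tests were exact two-sided permutation tests over samples, with 6 arrangements.

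The genes named were the 10 shared genes of best mean rank, up to 8 found with 1 isoform by the worse of its ranks, the 6 with the largest rank gap in each direction, the 4 strongest distal regions, Set and Gt(ROSA)26Sor, and examples from the 18 gene lists. Genes in the paragraph on IDR peaks in no SETb library were chosen after their values were seen. The comparison, its members and the gene lists were chosen with earlier results of these data known. The motif letters, the pseudogene class and the alternatives without pseudogene summits or with listed starts only were chosen after the data were seen. Other alternatives were leaving out each replicate or chromosome 6, other list lengths, thresholds, windows and ranking measures, and the replicate block.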

Additional observations from a re-analysis of the deposited data

How the results depend on the processing

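The difference in peak number kept its direction in every alternative, from 0.93 to 2.89 (log2) when a replicate was left out. The count of genes found with both isoforms ranged from 417 to 843 over the alternatives. The difference in the share of summits at gene starts, 1.33 percentage points, turned to −9.6 with the strongest 500 peaks, −8.89 with all peaks and −19.8 at a −log10 q of at least 5, and ranged from −5.88 to 8.54 when a replicate was left out (−5.88 without SETa replicate 2, −2.64 without SETb replicate 2). The difference in distal share, −1.99 points, turned to 2.3, 0.55 and 3.66 under the same 3 settings, and ranged from −2.46 to −1.51 when a replicate was left out. The difference in width turned to −3.5 bp over all peaks, was 49.2 bp at a −log10 q of at least 5 and ranged from 123.5 to 164 bp when a replicate was left out. The cause of these reversals was not tested. Genes found with SETa only numbered 353 with a 250 bp window, 114 in lists of equal length, 15 at a −log10 q of at least 5, and 1016 to 2333 when a replicate was left out, which asks less of either isoform. Genes found with SETb only numbered 113 in lists of equal length, 0 at a −log10 q of at least 5 and 14 to 133 when a replicate was left out. Regions ranked better with SETa and SETb then numbered 347 to 595 and 360 to 611, which is 33.8% to 34.5% and 35.0% to 37.2% of 1018 to 1726 regions, with 3 libraries to order. Permuting within the replicate block left the differences at 1.91, 1.33, −1.99 and 143.8 with exact p-values of 0.5, 1, 0.5 and 0.5, where 0.5 is the smallest possible. Across 954 regions the log rank difference of replicate 1 minus replicate 2 had a correlation of 0.04 between SETa and SETb. This cannot decide whether replicate numbers pair the samples, since a shared batch need not move the same regions in both lines. Among the genes named as found with 1 isoform, 25 values lost the call, in part by leaving out their chromosome. The genes with the largest rank gaps kept their direction wherever a region shared by the libraries remained at their start, and elsewhere gave no value. The other genes named were not recomputed.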
